A study of Mus musculus with 9 samples.

Results

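The carbohydrate response element-binding protein (ChREBP, gene *Mlxipl*) is the transcription factor through which liver cells read sugar metabolites. The genes described here are the 3 sugar-sensing factors *Mlxipl*, *Mlxip* and *Mlx* and 5 carbohydrate-response targets, *Pklr*, *Txnip*, *Arrdc4*, *Tm6sf2* and *Bhlhe40*. They were taken by name, 8 of the 19329 genes in the tables, and all 8 passed the filter on low counts that left 12091 genes to test. The livers came from separate animals of the inbred strain C57BL/6J, in 2 diet groups. The HSD group (4 livers) was put on a high-sucrose diet at 8 weeks of age and kept on it for 3 weeks, and the Chow group (5 livers) stayed on standard chow. All livers were taken at 11 weeks. All mice were kept under a 12-h cycle of light and dark, no allele or drug was part of the design, and the sources used here do not state the sex of the animals. The comparison of the diets asked which liver transcripts differed in a mouse model of fatty liver.

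ChREBP is inactive when glucose is scarce. When sugar phosphates accumulate, it enters the nucleus, pairs with its obligate partner MLX and binds carbohydrate response elements, which are pairs of E-box-like half-sites set a fixed distance apart, in the promoters of glycolytic and lipogenic genes. MondoA, encoded by *Mlxip*, is the paralog of ChREBP best known from muscle, and it uses the same partner. In the liver, sucrose reaches this system as glucose and fructose, and the pathway is known for coupling dietary sugar to glycolysis and fat synthesis.

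Promoter sequences are printed for the 3 targets with a match to a known element and for *Mlxipl*, to show how the matches differ between genes that share the name of target. Each is 300 bases of RefSeq sequence (GRCm38.p6) on the strand of the gene, 5′ to 3′, reaching from 250 bases before a transcription start to 50 bases after it. The capitals mark a match. In *Pklr* they mark the carbohydrate response element consensus, in *Txnip* a pair of the half-sites CANGNG and CNCNTG in either orientation set 5 bases apart, and in *Arrdc4* and *Mlxipl* the E-box CACGTG. Both strands were searched, and the consensus also counts as a pair of half-sites.
Pklr, downstream start, chr3:89136373-89136672, plus strand: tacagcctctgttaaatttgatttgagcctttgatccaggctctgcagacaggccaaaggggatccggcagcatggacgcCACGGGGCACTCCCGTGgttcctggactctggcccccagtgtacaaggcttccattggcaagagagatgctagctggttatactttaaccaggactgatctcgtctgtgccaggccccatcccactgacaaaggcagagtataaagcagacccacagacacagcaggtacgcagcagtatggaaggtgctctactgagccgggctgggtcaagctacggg
Txnip, chr3:96557707-96558006, plus strand: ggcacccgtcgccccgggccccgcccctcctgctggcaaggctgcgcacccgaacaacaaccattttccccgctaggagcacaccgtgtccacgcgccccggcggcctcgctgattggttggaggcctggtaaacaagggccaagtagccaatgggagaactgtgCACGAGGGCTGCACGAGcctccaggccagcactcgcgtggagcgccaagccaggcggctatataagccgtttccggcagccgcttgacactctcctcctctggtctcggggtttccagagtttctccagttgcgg
Arrdc4, chr7:68749189-68749488, minus strand: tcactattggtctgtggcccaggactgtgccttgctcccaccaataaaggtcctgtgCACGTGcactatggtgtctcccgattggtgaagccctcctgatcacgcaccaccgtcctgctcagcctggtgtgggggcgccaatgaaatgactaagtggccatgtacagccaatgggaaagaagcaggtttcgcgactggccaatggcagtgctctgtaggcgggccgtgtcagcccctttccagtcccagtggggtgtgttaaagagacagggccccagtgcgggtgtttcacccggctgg
Mlxipl, upstream start, chr5:135089640-135089939, plus strand: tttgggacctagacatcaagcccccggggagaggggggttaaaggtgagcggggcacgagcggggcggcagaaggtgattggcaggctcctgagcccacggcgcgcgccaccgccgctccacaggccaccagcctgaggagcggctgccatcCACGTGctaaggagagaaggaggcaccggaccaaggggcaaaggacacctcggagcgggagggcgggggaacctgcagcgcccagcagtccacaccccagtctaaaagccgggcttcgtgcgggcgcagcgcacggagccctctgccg

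Of the 8 genes, 6 had promoters in the RefSeq table. *Tm6sf2* and *Bhlhe40* had no entry in it. The *Pklr* match began 170 bases before the downstream start, and the consensus was found in 39 of 32851 mouse promoters of this length (0.119%). The *Txnip* pair of half-sites began 85 bases before the start, a class of match found in 2.26% of promoters. The E-box began 193 bases before the start of *Arrdc4*, 98 before the upstream start of *Mlxipl* and 40 before that of *Mlx*, and 7.15% of promoters held one. No match to these letters lay in the windows of *Mlxip*, of the downstream start of *Mlxipl* or of the upstream start of *Pklr*. A match describes the letters of the sequence and does not show that a factor was bound there in these livers.

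Libraries held 12769668 to 25913869 estimated counts, and hepatocyte markers such as *Alb* and *Apoa1* were abundant in every liver, with a summed level of 101700 to 136600 CPM (counts scaled to library size by TMM) in HSD and 73120 to 140100 CPM in Chow for all 8 markers. One liver, Chow 1, stood apart in acute phase genes, whose summed level was 105800 CPM there, against 20810 to 23190 CPM in the HSD livers and 19920 to 30920 CPM in the other Chow livers. The 5 red blood cell markers summed to 115 to 157 CPM in HSD and 183 to 459 CPM in Chow, with the highest value in Chow 2. Among them *Alas2* alone had the diets apart, and the globin genes overlapped. The 7 Kupffer cell markers summed to 95.9 to 195 CPM in HSD and 150 to 348 CPM in Chow. None of the 6 neutrophil markers had enough counts to be tested. These are whole pieces of liver, so fewer cells of a type and less RNA per cell cannot be told apart in any value below.

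None of the 8 genes passed edgeR's quasi-likelihood test at an adjusted p under 0.05, against 6.67% of all genes tested (3.44% higher and 3.23% lower in HSD). At an unadjusted p under 0.05 there were 3, *Pklr*, *Tm6sf2* and *Arrdc4*, against 23.7% of all genes tested (2861 of 12091). *Pklr* and *Tm6sf2* lay just above the threshold, and both passed by DESeq2 (11.1% of all genes) and by limma voom (6.77% of all genes), whereas *Tm6sf2* was the 1 gene that passed with limma on TPM (5.46% of all genes). In 1 of the 8, *Pklr*, every HSD liver was on one side of every Chow liver in CPM, which held for 11.3% of all genes. In TPM this was true of *Pklr* and *Tm6sf2* (12.2% of all genes). The median log2 fold change of the 3 sensors was 0.11 and that of the 5 targets was -0.05, beside 0.00 over all genes tested.

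**Figure D1:**
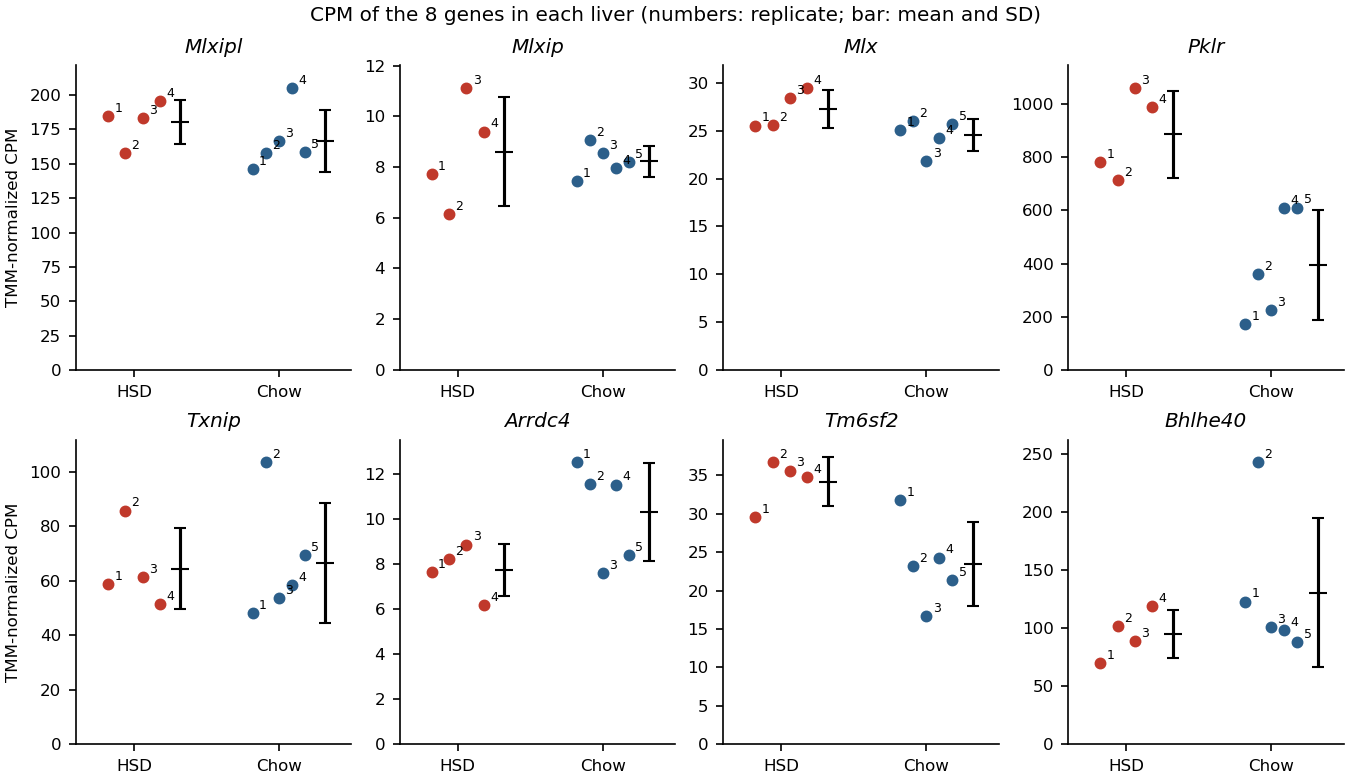
TMM-normalized CPM of the 8 genes in each liver, 1 panel per gene with its own linear axis starting at 0; points are livers (4 HSD, then 5 Chow), and bars are the group mean and SD. The HSD points of *Pklr* all lie above the Chow points, while the points of the 3 sensor genes overlap between diets.

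*Mlxipl*, the gene of ChREBP itself, differed little between diets. Its level was 185, 158, 183 and 196 CPM in the HSD livers, against 146, 158, 167, 205 and 158 CPM in the Chow livers. The groups overlapped, and the highest value of all was in Chow 4. The means were 180 ± 16.0 CPM in HSD and 167 ± 22.8 CPM in Chow (SD, n = 4 and 5), a log2 fold change of 0.11 ± 0.11 (SE) with an adjusted p of 0.578 by edgeR and a 95% interval of -0.13 to 0.35. *Mlxipl* lies on chromosome 5 (GRCm38, 135089890 to 135138382, plus strand). The gene makes a long isoform and, from another start, a shorter and more active one called ChREBP-beta, and a value summed over the gene does not separate them.

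*Mlx* encodes the common partner without which neither ChREBP nor MondoA binds DNA. It was measured at 25.6, 25.6, 28.4 and 29.5 CPM in the HSD livers, against 25.1, 26.04, 21.8, 24.3 and 25.7 CPM in the Chow livers. HSD 3 and HSD 4 were above all Chow livers, and the other HSD livers were inside their range. HSD over Chow gave a log2 fold change of 0.15 ± 0.09 (edgeR, adjusted p = 0.314), with a 95% interval of -0.04 to 0.34. The gene spans 101087277 to 101092207 on the plus strand of chromosome 11 and overlaps *Psmc3ip* on the other strand. The sources used here do not state whether the counting used strand, so reads of the overlap may belong to either gene. The same holds for *Mlxipl* and *Gm43500*, *Mlxip* and *Gm15747*, *Pklr* and *Hcn3*, *Txnip* and *Gm15441*, and *Bhlhe40* and *0610040F04Rik*, whereas *Arrdc4* and *Tm6sf2* overlap no annotated gene.

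*Mlxip*, the gene of MondoA, was the lowest of the 8 per length of transcript. It stood at 7.73, 6.14, 11.1 and 9.40 CPM in the HSD livers, against 7.44, 9.05, 8.56, 7.95 and 8.19 CPM in the Chow livers. The Chow values lay inside the wider HSD range, which ran between HSD 2 and HSD 3. The log2 fold change was 0.06 ± 0.16 (edgeR, adjusted p = 0.871), with a 95% interval of -0.29 to 0.41, and it was -0.084 without HSD 3, the highest liver. *Mlxip* lies on chromosome 5, 123394798 to 123457932, plus strand.

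Levels can be set between genes only per length of transcript, as in TPM. On that scale *Mlxipl* was 39.95 to 62.9 times *Mlxip* in single HSD livers and 45.3 to 51.3 times *Mlxip* in single Chow livers, and 2.40 to 3.44 times *Mlx* in HSD, against 2.33 to 3.35 times *Mlx* in Chow. The 8 genes ordered by their mean TPM in HSD livers were *Pklr* (462 ± 96.3), *Mlxipl* (96.9 ± 12.6), *Bhlhe40* (43.6 ± 9.41), *Tm6sf2* (37.5 ± 3.64), *Txnip* (33.0 ± 8.09), *Mlx* (32.4 ± 3.85), *Arrdc4* (3.91 ± 0.446) and *Mlxip* (1.86 ± 0.443; SD, n = 4). In Chow livers *Tm6sf2* stood below *Txnip* and *Mlx*, and the rest of the order was the same. In HSD the ranges of *Bhlhe40*, *Tm6sf2*, *Txnip* and *Mlx* overlapped, and the other neighbours in the order did not overlap. In Chow the ranges of neighbours overlapped except at the step down to *Arrdc4*.

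*Pklr* encodes the liver and red cell pyruvate kinase, which carries out the last step of glycolysis, and it is the classical ChREBP target. It had 782, 715, 1062 and 988 CPM in the HSD livers, against 173, 360, 224, 609 and 611 CPM in the Chow livers. All HSD livers lay above all Chow livers, and the Chow livers divided into Chow 4 and Chow 5, close to the HSD range, and the other 3 far below it. The highest Chow value was 3.53 times the lowest, whereas the highest HSD value was 1.48 times the lowest. The means were 887 ± 164 CPM in HSD and 395 ± 207.5 CPM in Chow, a fold of 2.24. The log2 fold change was 1.17 ± 0.33 with an adjusted p of 0.0566 (edgeR) and a 95% interval of 0.44 to 1.89, and 99.1% of all genes tested had a smaller log2 fold change.

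The side of the threshold on which *Pklr* fell depended on the fit. Its log2 fold change was above 0 in all 24 alternatives, and it passed in 9 of them, 1 of which had a single Chow liver. It passed without Chow 1 (0.97, adjusted p = 0.0484 by edgeR), without Chow 4 (1.38, adjusted p = 0.0387) and without Chow 5 (1.37, adjusted p = 0.0418), and over the 9 omissions of a single liver the adjusted p ran between 0.0387 and 0.141. Within the first series of library labels (2 HSD and 4 Chow livers) the log2 fold change was 1.13 (adjusted p = 0.277), and within the second (2 HSD livers and Chow 5) it was 0.74. The second series holds a single Chow liver and so has no Chow spread of its own. Its difference says little beside the Chow range of 173 to 611 CPM.

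**Figure D2:**
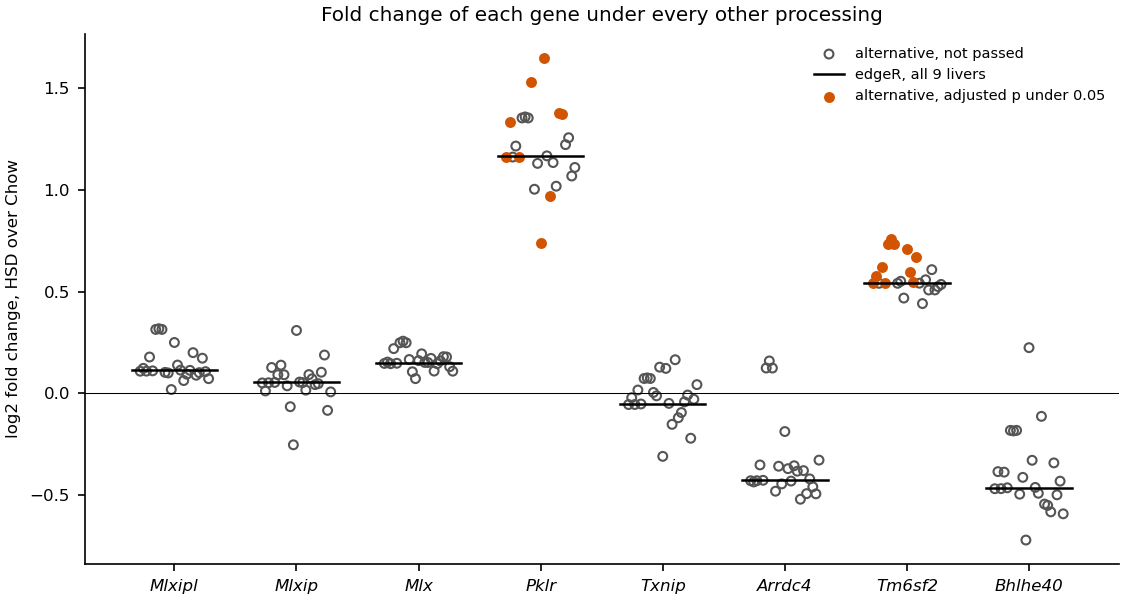
Log2 fold change of HSD over Chow (vertical axis, linear) of each of the 8 genes under edgeR with all 9 livers (black line) and under the alternatives other than the stricter threshold (points); filled points passed at an adjusted p under 0.05 and open points did not. *Pklr* and *Tm6sf2* lie above 0 at every point and on both sides of the threshold, and the points of *Txnip* fall on both sides of 0.

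*Pklr* spans 89136142 to 89146784 on the plus strand of chromosome 3. Its upstream start is known for the red cell form and its downstream start, which holds the element printed above, for the liver form. The summed red blood cell markers were lower in HSD than in Chow. Of the 5, the heme synthesis gene *Alas2* passed the test as lower (68.5 in HSD against 151 CPM in Chow, log2 fold change -1.14 ± 0.10, edgeR adjusted p = 0.00016). The globin genes *Hba-a1*, *Hba-a2*, *Hbb-bs* and *Hbb-bt* overlapped between diets and did not pass (edgeR adjusted p of 0.541 to 0.862). Their log2 fold changes were -0.60 to -0.23, with SE of 0.48 to 0.61. The part of red blood cells in the *Pklr* value was not tested. The paralog *Pkm*, the pyruvate kinase of muscle and growing cells, stood at 12.5 to 15.5 CPM in HSD and 13.4 to 18.1 CPM in Chow (log2 fold change -0.13, edgeR adjusted p = 0.527), and 34.7% of its 31-base sequences also occur in other genes, so its counts are less certain. In TPM, *Pklr* was 38.1 to 70.5 times *Pkm* in HSD livers, against 9.43 to 42.7 times in Chow livers.

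*Tm6sf2* encodes a membrane protein of the endoplasmic reticulum that takes part in lipid loading of very low density lipoprotein, and a human coding variant of it is known for fatty liver risk. It stood at 29.6, 36.7, 35.6 and 34.8 CPM in the HSD livers, against 31.8, 23.2, 16.7, 24.3 and 21.4 CPM in the Chow livers. The groups overlapped through 1 pair of livers, Chow 1 lying above HSD 1. The means were 34.2 ± 3.15 CPM in HSD and 23.5 ± 5.51 CPM in Chow, a fold of 1.46. The log2 fold change was 0.54 ± 0.15 (edgeR, adjusted p = 0.0517), with a 95% interval of 0.22 to 0.87.

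The value of *Tm6sf2* moved with the livers in the fit. Over the 9 omissions of a single liver its log2 fold change ran between 0.44, without Chow 3, and 0.67, without Chow 1. The edgeR adjusted p ran between 0.00710 and 0.127, and the omission of Chow 1 was the 1 of 9 in which *Tm6sf2* passed. *Tm6sf2* passed in 11 of 24 alternatives, including the fit with a single Chow liver, and was above 0 in all of them. In TPM it had 32.5, 38.8, 41.1 and 37.6 in the HSD livers, against 27.1, 23.4, 15.5, 25.4 and 20.8 in the Chow livers, and every HSD liver was above every Chow liver. With limma on log2(TPM + 1) the difference was 0.74 (adjusted p = 0.0221), but the TPM scale placed the median of all genes at 0.14, against 0.00 for TMM. *Tm6sf2* lies on chromosome 8, 70072924 to 70080066, plus strand.

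*Txnip* encodes thioredoxin-interacting protein, an alpha-arrestin that restrains glucose uptake and is a strong glucose-induced target of both ChREBP and MondoA in many cells. Here it had 58.7, 85.7, 61.4 and 51.5 CPM in the HSD livers, against 48.1, 104, 53.6, 58.5 and 69.4 CPM in the Chow livers. The groups overlapped, and the lowest and highest livers were both Chow. The log2 fold change was -0.05 ± 0.21 (edgeR, adjusted p = 0.915) with a 95% interval of -0.51 to 0.41, and it was 0.165 without Chow 2, the highest liver, which also had the highest sum of red blood cell markers. *Txnip* spans 96557957 to 96561883 on the plus strand of chromosome 3.

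*Arrdc4*, an alpha-arrestin of the same family and a MondoA and ChREBP target in other cells, was the 1 member with an unadjusted p under 0.05 whose HSD mean was the lower. It stood at 7.64, 8.25, 8.87 and 6.19 CPM in the HSD livers, against 12.5, 11.6, 7.60, 11.5 and 8.42 CPM in the Chow livers. Chow 1, Chow 2 and Chow 4 were above all HSD livers, and Chow 3 and Chow 5 were inside the HSD range. The log2 fold change was -0.42 ± 0.17 (edgeR, adjusted p = 0.158), with a 95% interval of -0.80 to -0.05.

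The direction of *Arrdc4* depended on the measure. In TPM it had 4.09, 3.28, 4.31 and 3.97 in the HSD livers, against 4.39, 3.65, 2.33, 3.97 and 3.41 in the Chow livers, and the difference in log2(TPM + 1) was 0.12 (limma, adjusted p = 0.646). A TPM is a count divided by the length of the transcripts to which the reads were assigned, so count over TPM, set relative to the median gene of the same liver, tracks that length. For *Arrdc4* it was 1.10, 1.42, 1.22 and 0.897 in the HSD livers, against 1.32, 1.66, 1.68, 1.64 and 1.32 in the Chow livers. Only HSD 2 lay inside the Chow range. The annotation holds 2 *Arrdc4* transcripts, of 3905 and 1129 bases, between 68736995 and 68749241 on the minus strand of chromosome 7, and how the reads were divided between them was not tested.

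**Figure D3:**
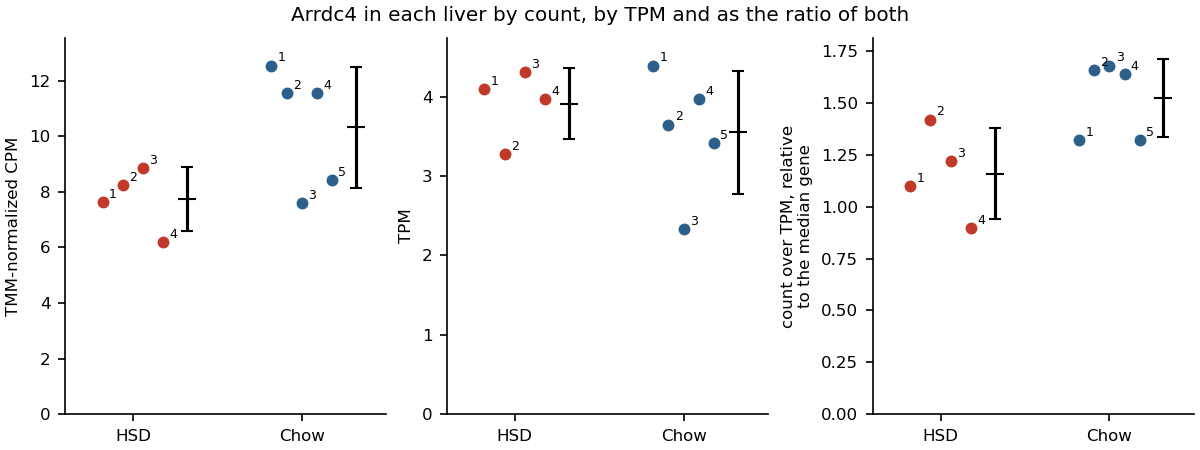
*Arrdc4* in each liver as CPM, as TPM and as count over TPM relative to the median gene of that liver, each on a linear axis starting at 0; points are livers (4 HSD, then 5 Chow) and bars are the group mean and SD. The HSD mean lies below the Chow mean in CPM and in count over TPM and above it in TPM.

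By the same measure *Pklr* stood at 1.10 to 1.14 in HSD and 0.963 to 1.09 in Chow. How many of all genes differ as much in this measure was not tested, so these ranges are a description only. For *Pklr* the scale did not change the direction. Its TPM was 411, 355, 566 and 516 in the HSD livers, against 79.8, 174, 120, 350 and 300 in the Chow livers.

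*Bhlhe40* encodes DEC1, a transcriptional repressor of the circadian clock that is also induced by ChREBP and by insulin in liver. It had 69.9, 102, 88.5 and 118.9 CPM in the HSD livers, against 123, 243, 101, 98.1 and 88.3 CPM in the Chow livers. The groups overlapped, and Chow 2 stood far above all other livers. With HSD over Chow, the log2 fold change was -0.46 ± 0.28 (edgeR, adjusted p = 0.340), with a 95% interval of -1.06 to 0.14, and without Chow 2 it was -0.11 (adjusted p = 0.723). Its paralog *Bhlhe41* (DEC2) was low, at 1.13 to 3.54 CPM in HSD and 1.44 to 6.19 CPM in Chow. *Bhlhe40* spans 108660629 to 108666925 on the plus strand of chromosome 6.

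Transcripts of the liver clock rise and fall over the day, and the livers differed in them within a diet. *Arntl*, the clock activator BMAL1, had 9.15, 4.22, 4.23 and 4.20 CPM in the HSD livers, against 4.40, 1.64, 9.24, 1.35 and 1.56 CPM in the Chow livers. *Dbp*, a clock output that peaks in the opposite phase, had 35.1, 96.2, 49.4 and 69.5 CPM in the HSD livers, against 43.3, 114, 27.4, 124 and 130 CPM in the Chow livers. Chow 1 and Chow 3, the lowest in *Pklr*, were the Chow livers with the highest *Arntl* and the lowest *Dbp*. With *Arntl* minus *Dbp* on the log2 scale added to the fit, the log2 fold change of *Pklr* was 1.65 (edgeR, adjusted p = 0.00370) and that of *Tm6sf2* was 0.60 (adjusted p = 0.0449). The sources used here do not state the times of collection, and of the 17 clock genes none passed the edgeR test (4 at an unadjusted p under 0.05, against 23.7% of all genes).

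**Figure D4:**
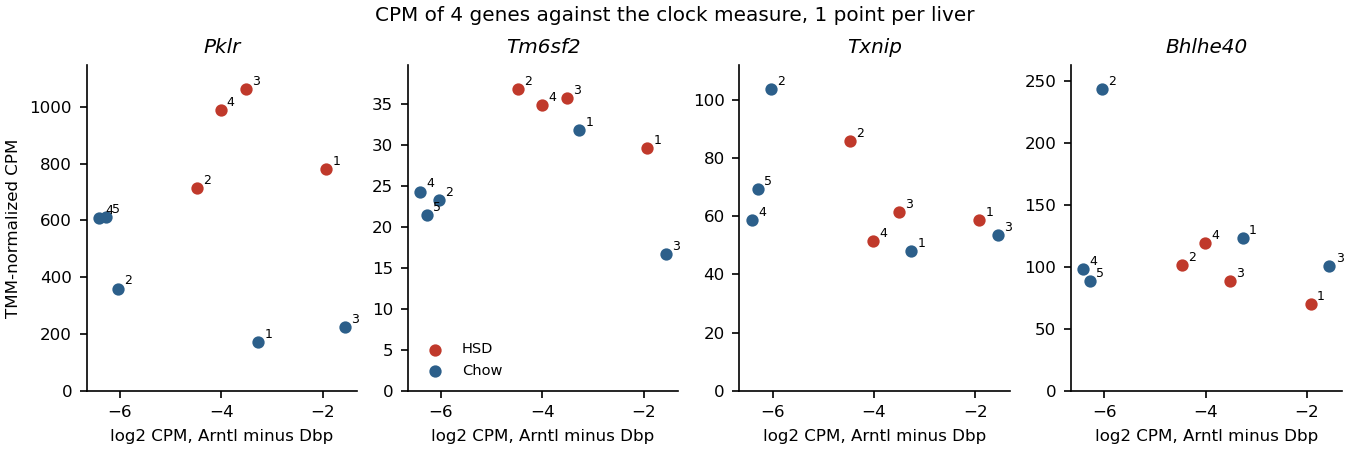
TMM-normalized CPM of *Pklr*, *Tm6sf2*, *Txnip* and *Bhlhe40* (linear vertical axes starting at 0) against the log2 CPM of *Arntl* minus that of *Dbp*, with 1 point for each of the 9 livers, coloured by diet and numbered by replicate. Chow 2, Chow 4 and Chow 5 lie at the left, and Chow 1 and Chow 3, the lowest in *Pklr*, lie among or to the right of the HSD livers.

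The genes around ChREBP were counted over lists. Of the 9 tested of the MAX and MLX network, basic helix-loop-helix factors that share or compete for partners, 1 was higher and 1 lower in HSD (6.67% of all genes were called), with a median log2 fold change of 0.04. *Mycn* had 4.53, 3.34, 5.05 and 3.41 CPM in the HSD livers, against 2.33, 0.467, 0.866, 1.42 and 0.780 CPM in the Chow livers (log2 fold change 1.78 ± 0.36, edgeR adjusted p = 0.0148). *Mnt*, a repressor that pairs with MLX as well as MAX, had 5.56, 6.97, 6.14 and 7.61 CPM in the HSD livers, against 9.05, 13.2, 10.01, 9.67 and 8.11 CPM in the Chow livers (-0.61 ± 0.16, edgeR adjusted p = 0.0402). In both genes the diets were fully apart, as in 11.3% of all genes. No gene of the list was called lower with the clock covariate, which called 2 higher, nor without Chow 2, Chow 3, Chow 4 or any single HSD liver, and none was called higher without HSD 1. Of 17 genes for proteins that act on ChREBP, such as the glycosylation enzyme gene *Ogt* and the kinase genes *Prkaa1* and *Prkaa2*, none passed edgeR's test, with 5 at an unadjusted p under 0.05 (23.7% of all genes) and a median of 0.15.

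Beside the 5 targets, the list of 23 other carbohydrate-responsive genes had 12 higher and none lower in HSD, against 3.44% higher and 3.23% lower of all genes, with a median log2 fold change of 0.59. At an unadjusted p under 0.05 there were 15 of 23, against 23.7% of all genes. Many of these genes answer to SREBP-1c as well, and the list was chosen with results of these livers known, so its direction is not independent evidence. The largest were *Pnpla3*, the lipid droplet protein adiponutrin (15.02 in HSD against 1.32 CPM in Chow, 3.51 ± 0.51, edgeR adjusted p = 0.00297), and *Fgf21*, a hormone of the liver (4.52 in HSD against 0.563 CPM in Chow, 2.99 ± 0.40, edgeR adjusted p = 0.00199). *Acaca* and *Fasn*, which make malonyl-CoA and fatty acid, had log2 fold changes of 1.94 and 1.65, although 33.4% of the 31-base sequences of *Acaca* also occur in other genes. Those without a call included the glucose transporter gene *Slc2a2* (0.00) and *G6pc*, the glucose-6-phosphatase gene (-0.17).

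**Figure D5:**
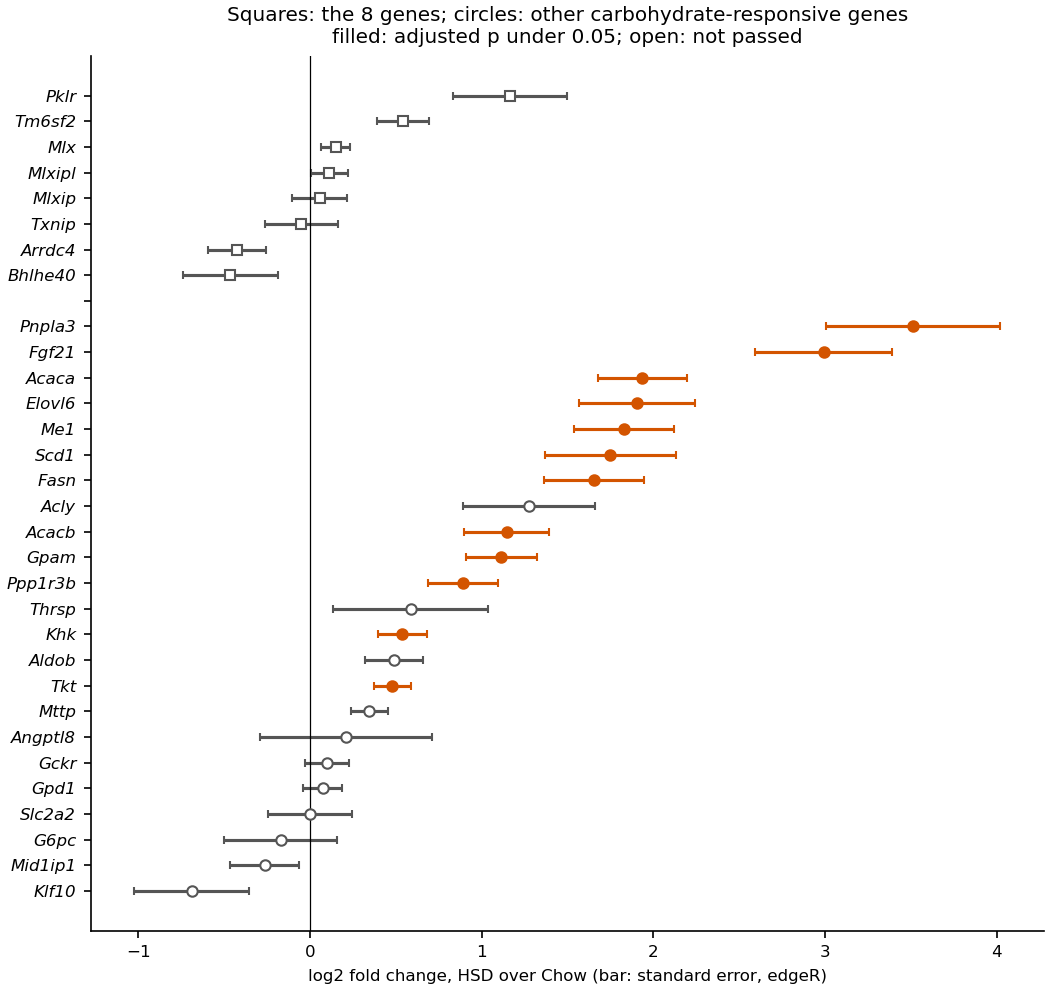
Log2 fold change of HSD over Chow (horizontal axis) with its standard error from edgeR, for the 8 genes (squares) and the 23 other carbohydrate-responsive genes (circles); filled symbols have an adjusted p under 0.05. All 8 squares are open, while 12 of the 23 circles are filled, all of them to the right of 0.

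Among relatives of the targets, *Arrdc3*, an alpha-arrestin that is not a classical carbohydrate-response gene, was higher in HSD. It stood at 159, 170, 141 and 130 CPM in the HSD livers, against 80.7, 63.2, 93.7, 130 and 72.5 CPM in the Chow livers, HSD 4 and Chow 4 being almost equal and the diets otherwise apart (0.77 ± 0.18, edgeR adjusted p = 0.0281). *Arrdc1* (-0.50, adjusted p = 0.285) and *Arrdc2* (-0.21, adjusted p = 0.526) did not pass, and *Arrdc5* had no counts in any liver. None of the 7 genes of the TM6SF2 and lipoprotein assembly list passed edgeR's test, with 3 at an unadjusted p under 0.05 (23.7% of all genes). The closest to the threshold was *Mttp*, the microsomal transfer protein (450.1 in HSD against 354 CPM in Chow, 0.35 ± 0.11, adjusted p = 0.0768). The paralog *Tm6sf1* was low, at 0.688 to 1.09 CPM in HSD and 0.701 to 1.64 CPM in Chow.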

How the data were processed

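Liver RNA of 9 mice (4 HSD, 5 Chow) was compared, grouped by the diet in the labels. The authors made poly-A libraries, sequenced paired reads, ran kallisto (the sources used here do not state its version) and deposited estimated counts per gene symbol, not scaled, and TPM, scaled by the authors per library. TPM summed to 923061 to 945110 over the genes listed. Kallisto divides a read that matches several transcripts among them, and the sources used here do not state how transcripts were summed to genes. Of the deposited counts above 0, 34.1% were whole (tolerance 1e-06) and 99.1% of those were even, so a fit with halved counts was also made. No column of another sample was present (0 columns).

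After rounding, the estimated counts were filtered with filterByExpr (a minimum count of 10 and a minimum total of 15). TMM factors and the quasi-likelihood test came from edgeR 4.0.16 (R 4.3.3), with diet as the single factor and 7 residual degrees of freedom. Genes with a Benjamini-Hochberg adjusted p under 0.05 over all 12091 genes tested were called higher or lower. Common dispersion corresponded to a biological coefficient of variation of 0.187. Totals of 12769668 to 25913869 set the depth. The smallest differences are limited by 4 and 5 livers. CPM use TMM-scaled library sizes (prior count 2 on the log2 scale).

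The members and gene lists were chosen with earlier results of these data known. The named genes are the 8 members in full, the called genes of each list (up to 6 by adjusted p), paralogs of the members, and for each member the 3 genes with the highest Pearson r of log2 CPM over the 9 livers. *Ogt*, *Prkaa1*, *Prkaa2*, *Slc2a2*, *G6pc*, *Mttp*, *Arntl*, *Dbp* and some markers were named outside it, after their values were seen. Some genes of the rule are not reported here. Alternatives were DESeq2 1.42.0, limma 3.58.1 (voom, and log2(TPM + 1) or log2(TPM + 0.1) for a mean TPM of at least 1 or for all genes), other size factors, library totals, no filter, a replicate block, the series of library labels, a clock covariate, halved counts, an adjusted p under 0.01 and each liver left out. Gene positions and transcripts are from GENCODE for GRCm38, and promoters from RefSeq (GRCm38.p6).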

Additional observations from a re-analysis of the deposited data

How the results depend on the processing

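The number of genes past the test was 807 and became 1337 with DESeq2, 294 with limma on log2(TPM + 1) over all genes, 425 with the replicate block, 34 in the first label series alone and 209 at an adjusted p under 0.01, and 302 to 968 with a liver left out, the lowest without HSD 1 and the highest without Chow 1. Of those called, 51.5% were higher in HSD, against 69.1% with library totals and 82.5% with limma on log2(TPM + 1), 81.6% with log2(TPM + 0.1) and 82.7% over all genes. The number of members past the test was 0. It became 2 with DESeq2 (1337 of 12091 genes called) or limma voom (819 of 12091). It was also 2 with no filter (736 of 16452) or the clock covariate (876 of 12091). It was 1 with library totals (823 of 12091), the replicate block (425 of 12091) or halved counts (857 of 11342). Each of the 3 TPM fits also gave 1 (576 and 549 of 10542 genes, and 294 of 16487 over all genes). With a liver left out it was 0 to 2. The second label series has a single Chow liver and is not counted here. The other carbohydrate-responsive genes past the test were 12, and 7 with TPM over all genes, 1 in the first label series, 7 at an adjusted p under 0.01 and 7 to 12 with a liver left out, 7 without HSD 1 or HSD 4. The MAX and MLX network had 2 past the test, 1 with library totals, each TPM fit or the label series as covariate, 0 in the first label series or at an adjusted p under 0.01, and 0 to 2 with a liver left out. *Txnip* turned to 0.016 with library totals, 0.073, 0.076 and 0.073 in the TPM fits, 0.0045 with the replicate block, 0.13 in the first label series and 0.12 with the clock covariate, and ran between -0.22 and 0.165 with a liver left out. *Arrdc4* turned to 0.12, 0.16 and 0.12 in the TPM fits, *Bhlhe40* to 0.22 in the second label series, and *Mlxip* to -0.066 with the label series as covariate, to -0.25 in the first label series and between -0.084 and 0.19 with a liver left out. The cause of these changes was not tested. The replicate numbers were not used as a pairing in the main fit. The correlations of same-numbered livers were 0.0457, 0.0661, -0.0609 and 0.0447. They were not set against those of differently numbered livers, so they do not decide whether the numbers pair the livers. Under the block *Pklr* had a log2 fold change of 1.53 (edgeR, adjusted p = 0.0228). Number 5 occurs in Chow alone, so Chow 5 adds nothing to the diet difference under the block. Without Chow 5 and without a block, *Pklr* had 1.37 (edgeR, adjusted p = 0.0418). The sources used here do not state what the series of library labels stands for, and Chow 5 is the single Chow liver of the second, so that fit assumes that it varies like the others.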

Other observations

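The genes most like each member over the 9 livers were sought among 10367 genes, as a description. *Pklr* was followed most closely by *Gbe1*, the glycogen branching enzyme (Pearson r of log2 CPM 0.99), *Aqp8*, a water channel (0.98), and *Slc17a4*, a phosphate and anion transporter (0.98). Their log2 fold changes of HSD over Chow were 0.67 for *Gbe1*, 0.98 for *Aqp8* and 0.94 for *Slc17a4*. The genes were picked for following *Pklr*, whose HSD livers all lay above its Chow livers. Their direction therefore comes with the choice and is not separate evidence. *Bhlhe40* was followed by *Klf10*, an early response factor and carbohydrate-responsive gene, at an r of 0.95, and Chow 2 was highest in both (243 CPM in *Bhlhe40* and 56.3 CPM in *Klf10*). *Mlxipl* was followed by *Nfib*, a nuclear factor gene (0.95). The points share libraries and diet, so part of each r is the difference between diets.

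Of 11 fasting-responsive genes, 3 were higher in HSD and none lower, against 3.44% higher and 3.23% lower of all genes tested. They were *Pdk4*, the kinase that shuts pyruvate dehydrogenase (5.88 in HSD against 1.67 CPM in Chow, log2 fold change 1.82 ± 0.23, edgeR adjusted p = 0.00167), *Ppargc1a*, a coactivator of gluconeogenesis (13.4 in HSD against 7.01 CPM in Chow, 0.93 ± 0.17, edgeR adjusted p = 0.00955), and *Fgf21*, which the list shares with the carbohydrate-responsive genes. The sources used here do not state the feeding state of the mice at collection.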
